A study of Drosophila melanogaster with 33 samples.

Results

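Chromatin accessibility in wild-type clock neurons was compared between subjective dawn (CT24) and subjective dusk (CT36), in flies kept in constant darkness (DD). These were the 6 libraries, of 33 in the series, whose labels name clock neurons isolated with *Clk-GAL4* in wild-type flies in DD, 3 at each time. *Clk-GAL4* drove a nuclear GFP in almost all clock neurons of the adult brain, and all flies compared here carried it. Flies were entrained to a 12:12 light-dark cycle (LD) and released into darkness, brains of both sexes were dissected and pooled, and live GFP-positive cells were sorted from them. The assay was ATAC-seq, in which the transposase Tn5 cuts accessible DNA and leaves sequencing adapters there. For comparison, 8 libraries came from the same genotype at ZT0 and ZT12 in LD, and 8 from *per01* mutants, which make no PER protein, at CT24 and CT36 in DD. A further 3 libraries came from wild-type cells in DD without GFP, a mixture of neurons and glia called non-clock cells. The labels and the study's text differ on how many brains and how many days of darkness each library stands for, and the times are those of the labels.

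The molecular clock of *Drosophila* is a transcriptional feedback loop. CLOCK (CLK) and CYCLE (CYC) bind as a pair to a DNA motif called the E-box and activate *period* (*per*) and *timeless* (*tim*) from about midday until early night. The PER and TIM proteins then enter the nucleus late at night and stop CLK and CYC, so that around dawn these genes are repressed. In a second loop, CLK and CYC activate *vrille* (*vri*), whose product represses *Clk*, and *PAR-domain protein 1* (*Pdp1*), whose product activates it. *clockwork orange* (*cwo*) encodes another repressor that binds E-boxes. Dusk therefore falls in the active phase of the loop and dawn in its repressed phase.

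The E-box is shown here because it is the motif of CLK and CYC, and because core clock genes were among those higher at dusk. In the 150 bp on each side of the summit, CACGTG, which reads the same on both strands, was found in 6.21% of the 19984 regions tested, in 13 of 29 regions higher at dusk (44.8%) and in 5 of 82 higher at dawn (6.10%). Of the 29, 19 had no peak call at dawn and entered the test through the dusk libraries alone, and the E-box was in 6 of these 19. It was in 4 of the 7 dusk regions called in all 6 libraries, and in 28.2% of a larger set of 110 such regions described below. The lines below give 40 bases on each side of the E-box nearest to the summit, from the RefSeq copy of the dm6 assembly, plus strand, with the E-box in capitals. Those of *tim* (chr2L:3507377-3507462), *vri* (chr2L:5303312-5303397), *Pdp1* (chr3L:7833789-7833874) and *per* (chrX:2687665-2687750) are from core clock genes. Those of *CG44362* (chr3L:11397806-11397891), *norpA* (chrX:4339466-4339551) and *dpr6* (chr3L:10106118-10106203) are from regions outside the clock that passed the test at dusk. The regions of *tim* and *per* shown here did not pass it.
tim: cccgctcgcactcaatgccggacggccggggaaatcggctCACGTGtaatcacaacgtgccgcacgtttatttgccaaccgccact
vri: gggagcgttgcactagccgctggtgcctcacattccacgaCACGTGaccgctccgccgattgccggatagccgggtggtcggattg
Pdp1: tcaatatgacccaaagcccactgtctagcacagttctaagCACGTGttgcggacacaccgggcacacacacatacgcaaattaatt
per: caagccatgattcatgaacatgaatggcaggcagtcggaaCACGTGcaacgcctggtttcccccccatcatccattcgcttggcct
CG44362: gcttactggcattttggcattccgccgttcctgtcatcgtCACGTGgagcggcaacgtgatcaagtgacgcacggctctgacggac
norpA: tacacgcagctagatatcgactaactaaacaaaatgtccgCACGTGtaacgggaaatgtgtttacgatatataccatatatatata
dpr6: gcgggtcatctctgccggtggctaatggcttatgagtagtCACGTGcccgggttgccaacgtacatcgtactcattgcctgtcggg
In *tim* the E-box lay 116 bp from the summit, in *vri* 115, in *Pdp1* 46 and in *CG44362* 65 bp. A match to these letters is a description of the sequence, and binding was not measured.

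One list of peaks per library was the starting point. The number of sequenced ends over each peak summit, called tags here, was recovered as a whole number from the fold enrichment and the p-value in the lists. The libraries held 9.19, 9.19 and 14.1 M (mega) tags at CT24 and 8.72, 11.2 and 11.1 M at CT36, and between 19850 and 22265 peaks, with a median of 47 to 63 tags at a summit. Peaks sharing at least 1 bp were merged into 26746 regions, of which 19984 were called in 3 or more of the 6 libraries and tested. Values below are scaled tags, that is tags at the highest summit of a region divided by the library's size factor, and log2 changes are CT36 over CT24 on the log2(tags + 1) scale with their SE. A region passed when the adjusted p of limma was below 0.1. Replicates are separate libraries of a group, and the p-values measure the spread between them.

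CT36 replicate 3 stood apart from its group. Over the regions called in all 6 libraries it correlated with the CT24 libraries (0.960 to 0.970) as closely as with the other CT36 libraries (0.960 and 0.963), whereas those 2 correlated with CT24 at 0.944 to 0.958. The counts of regions and windows that passed are given without it as well, whereas most single regions and windows are given with it only. Clock neuron markers were above non-clock cells in 7 of 9 genes, with a summed level of 125 to 133 CPM (tags per M tags of the library) at CT24, 126 to 148 at CT36 and 74.2 to 81.6 in non-clock cells, whereas no peak was called at *Pdf*. In pooled cells, a lower value per cell and fewer cells of one type cannot be told apart.

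Between dawn and dusk, 111 of 19984 regions passed the test (0.555%). Of these, 29 were higher at dusk (0.145% of those tested) and 82 at dawn (0.41%). A missing call was filled in for 54 of the 111. Among them, 19 dusk and 30 dawn regions had no call in the other group, so their change depends on the filled-in value. The median change over all regions was 0.01 in log2, and the median absolute change was 0.14. Among the 57 that were called in all 6 libraries, 7 were higher at dusk by 0.56 to 1.02 in log2, and 50 were higher at dawn, with changes of -1.13 to -0.37. In all 57 the values of the groups did not overlap, against 15.9% of the 14342 regions called in all 6. The count depended on single libraries: it was 12, 17 and 64 without CT24 replicate 1, 2 and 3, and 30, 47 and 558 without CT36 replicate 1, 2 and 3. A region called in 1 group only could no longer be tested when a library of that group was left out.

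When regions with a missing call were left aside and no value was filled in, 515 of the 14342 regions called in all 6 libraries passed (3.59%). Of these, 110 were higher at dusk (0.767%), with a median log2 change of 0.58, and 405 at dawn (2.82%), with a median of -0.53. All 57 regions named above were among them. CT36 replicate 3 was the CT36 library nearest to CT24 in 348 of the 405 dawn regions and in 63 of the 110 dusk regions. In the test with filled-in values, 318 of the 405 and 30 of the 110 passed without this library. With all 6 libraries, 50 and 7 passed in that test. The test without filled-in values was not repeated without it. This larger set is used below to describe where the changes lay, and the set of 111 for single regions.

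**Figure D1:**
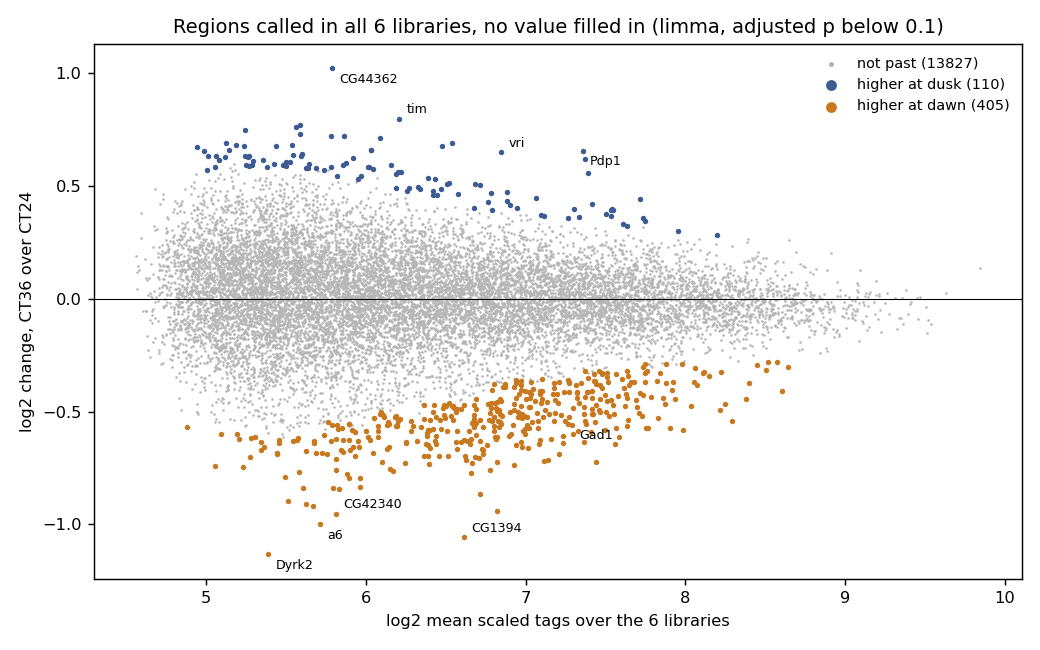
Each point is 1 of the 14342 regions called in all 6 libraries. The x axis is the log2 of the mean scaled tags and the y axis the log2 change, CT36 over CT24. The 110 regions higher at dusk (blue) and 405 higher at dawn (orange) passed limma without filled-in values, and *CG44362* and *tim* lay highest and *Dyrk2* lowest.

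Core clock genes were among those that rose at dusk. Of 34 tested regions at the 7 core clock genes, 3 passed (8.82%, against 0.555% of all regions tested), all higher at dusk (0.145% of all), and they lay at *tim*, *vri* and *Pdp1*. The median change of the 34 was 0.14 in log2, against 0.01 over all regions, and 22 of them were higher at dusk. Without filled-in values, 6 of 29 were higher at dusk, against 0.767% of all regions, 3 of them at *tim*, 2 at *Pdp1* and 1 at *vri*, and 1, in an intron of *vri*, was higher at dawn.

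The *tim* region that passed lay at the start site of the gene (chr2L:3507856-3508128). It had 48.7, 50.1 and 62.8 scaled tags at CT24 and 93.2, 104 and 85.1 at CT36. Every dusk library was above every dawn library, and the log2 change was 0.80 ± 0.15 (limma adjusted p = 0.066). Another region, at a different annotated start site of *tim* (chr2L:3507171-3507563), holds the E-box printed above and was the more accessible of the pair. It had 95.1, 134 and 167 scaled tags at CT24 and 199, 224 and 175 at CT36, a change of 0.62 that missed the threshold (limma adjusted p = 0.198, and 0.0037 without filled-in values), and its dawn libraries were spread widely.

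The region of *vri* lay in an intron (chr2L:5303195-5303743), 2181 bp from the nearest start site. Its libraries varied little within a group, with 87.4, 90.7 and 89.9 scaled tags at CT24 and 142, 145 and 136 at CT36. The log2 change was 0.65 ± 0.10 (limma adjusted p = 0.018). Another intronic region of *vri* went the other way, with 284, 230.4 and 252 scaled tags at CT24 and 193, 208 and 206 at CT36. That change of -0.33 missed the threshold in the test with filled-in values (limma adjusted p = 0.198) and passed without them (limma adjusted p = 0.048). It also passed when missing calls of other regions were set to the most tags that could have gone uncalled (limma adjusted p = 0.091).

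The region of *Pdp1* also lay in an intron (chr3L:7833693-7834356), 712 bp from a start site. It rose from 113, 119 and 151 scaled tags at CT24 to 204, 197 and 200.4 at CT36, a log2 change of 0.66 ± 0.11 (limma adjusted p = 0.044). The dusk libraries were nearly equal and the highest dawn library stayed below them. Over 16 settings, 6 of which left out a library, *vri* passed in 13, *Pdp1* in 10 and *tim* in 9, and all kept their direction.

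*per* and *Clk* did not pass. Their regions with a missing call did so when that value was set to the most tags that could have gone uncalled (0.60, limma adjusted p = 0.071, at *per* and -0.77, limma adjusted p = 0.054, at *Clk*). With filled-in values but without CT36 replicate 3, the region of *Clk* passed too (-0.99, limma adjusted p = 0.085), and that of *per* did not (limma adjusted p = 0.283). The intronic region of *per* with an E-box (chrX:2687393-2687974) had 56.4 and 55.8 scaled tags in the 2 dawn libraries that called it and 90.8, 71.7 and 75.3 at dusk (limma adjusted p = 0.308), and the start site of *per* had 163 to 184 at dawn and 184 to 209 at dusk. An intronic region of *Clk* (chr3L:7772239-7772591) had 52.0, 53.3 and 51.9 scaled tags at dawn and 33.5 and 29.3 in the 2 dusk libraries that called it (limma adjusted p = 0.152). At the start site of *cyc*, whose RNA is known not to cycle, values were 49.8, 73.6 and 72.8 at dawn and 56.6, 68.0 and 64.5 at dusk, and the groups overlapped.

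**Figure D2:**
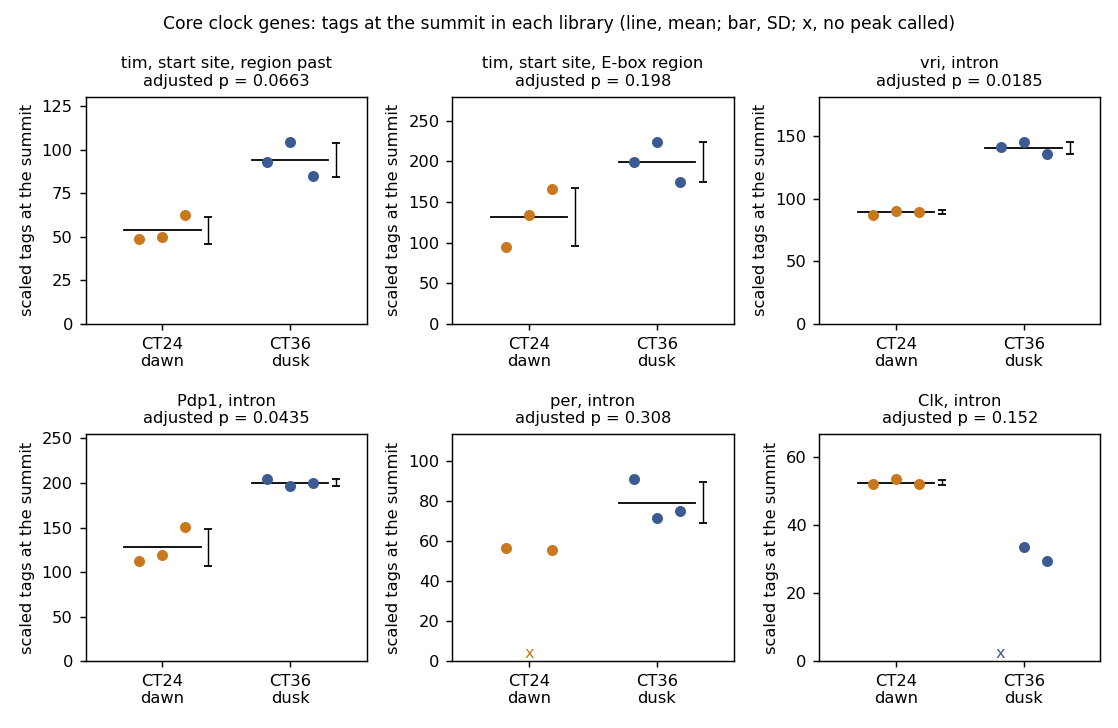
Scaled tags at the summit (y axis, from 0) of 6 regions of core clock genes in each of the 3 CT24 and 3 CT36 libraries. Points are libraries, lines are means, bars are SD, and x marks a library with no called peak. Every dusk library of *tim*, *vri* and *Pdp1* lay above every dawn library.

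The peak lists hold a further readout, the tags in the 10 kb around a summit, which MACS2 counts as its local background and which is not limited to the summit. Of 8566 such windows, 969 differed (11.3%), 321 of them higher at dusk (3.75%) and 648 at dawn (7.56%). When libraries were scaled by their total tags, the split was 205 at dusk and 954 at dawn. Windows of neighbouring regions overlap, and 431 that did not overlap remained when neighbours were dropped. The 969 windows were nearest to 450 genes in all. Typical changes were small, with a median of 0.24 in log2 for windows higher at dusk and -0.24 for those higher at dawn. The count was 280 to 1439 when a library was left out, with 500 without CT24 replicate 1, 280 and 415 without CT36 replicates 1 and 2, and 1439 without CT36 replicate 3.

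*tim* led the windows that were higher at dusk. Its window had 1465, 1617 and 1873 scaled tags at CT24 and 2951, 2903 and 2329 at CT36, a log2 change of 0.72 ± 0.09 (limma adjusted p = 0.00022). The next were *mir-219* (0.62), the precursor of a microRNA, *twz* (0.55), *Pdp1* (0.49) and *vri* (0.48). Of 28 partly overlapping windows at core clock genes, 15 were higher at dusk and 0 at dawn (0 also at an unadjusted p below 0.05 in limma). At *per* the 10 kb around the start site rose from 3001, 2958 and 3218 to 3633, 3350.3 and 3556 scaled tags (log2 change 0.20 ± 0.05, limma adjusted p = 0.017), although none of the 3 tested summits in it passed by itself in the test with filled-in values.

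*mir-219* lies in an intergenic stretch of 3L. Its window had 1211, 1269.9 and 1569 scaled tags at dawn and 2116, 2227 and 1856 at dusk. The strongest change at a summit there (chr3L:17310463-17310631) was 0.77 in log2 and passed without filled-in values (limma adjusted p = 0.011), with 33.2, 35.2 and 37.2 scaled tags at dawn and 66.0, 65.2 and 51.8 at dusk. An E-box lay in its window, as in that of the neighbouring region nearest to *ND-24L*, which rose by 0.68.

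At dawn, the window with the largest change was that of *nAChRalpha3*, a subunit of the nicotinic acetylcholine receptor. It had 1965, 1640.4 and 1616 scaled tags at CT24 and 952, 1061 and 1407 at CT36 (log2 change -0.62 ± 0.11, limma adjusted p = 0.0015). CT36 replicate 3 was again the dusk library nearest to dawn. *lncRNA:CR44500* (-0.59), *AstA-R1* (-0.50), *kek3* (-0.50) and *lncRNA:CR44780* (-0.50) followed. The window at the start site of *Gad1*, which encodes the enzyme that makes GABA, fell from 2949.9, 2865 and 2983 to 1869, 1960 and 2475 (-0.49), and its summit passed without filled-in values with a change of -0.56 (limma adjusted p = 0.0042).

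**Figure D3:**
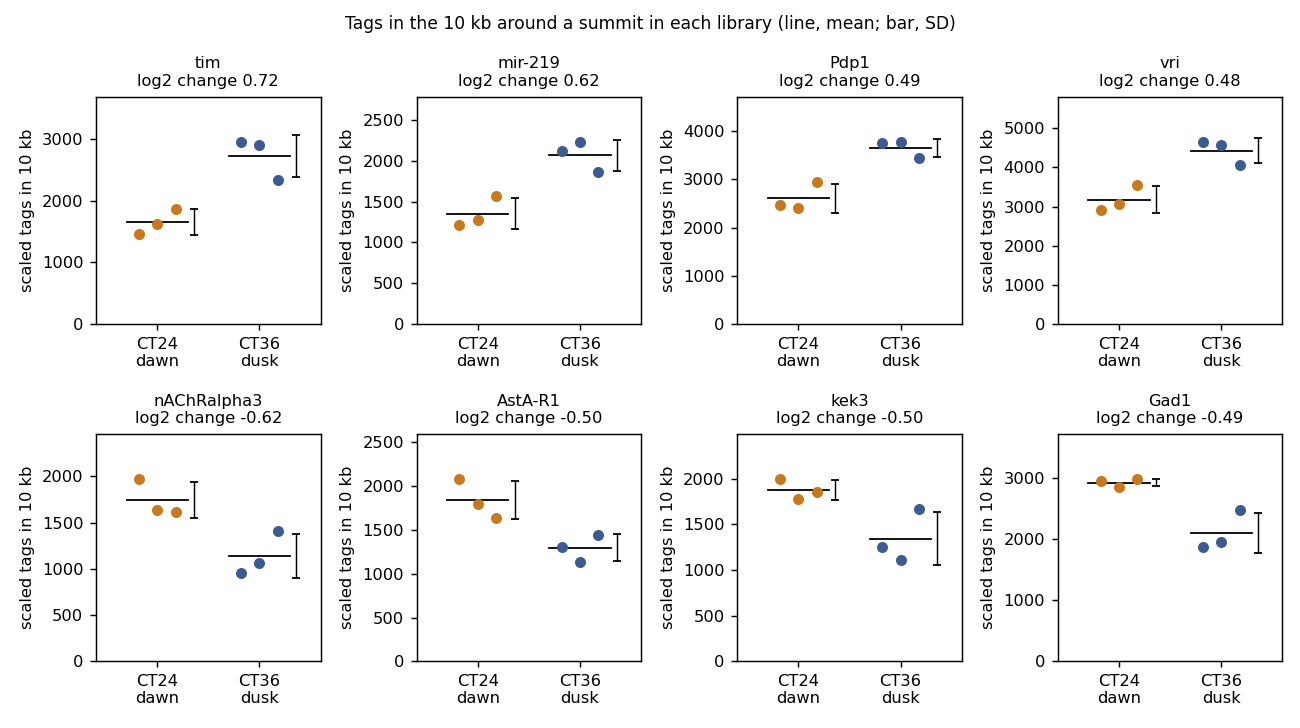
Scaled tags in the 10 kb around a summit (y axis, from 0) in each library, for 4 genes higher at dusk (upper row) and 4 higher at dawn (lower row). Points are libraries, lines are means and bars are SD. At *nAChRalpha3*, *kek3* and *Gad1* the third point of CT36 lay closest to the CT24 libraries.

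Outside the core clock, the largest dusk change among regions called in all 6 libraries was nearest to *CG44362* (chr3L:11397575-11398096). This region had 33.2, 29.9 and 46.5 scaled tags at CT24 and 80.2, 73.6 and 68.4 at CT36, a log2 change of 1.02 ± 0.20 (limma adjusted p = 0.072). The others were *Camta* (0.71), a calmodulin-binding transcription factor, *lncRNA:CR43174* (0.69) and *Argk1* (0.56), the arginine kinase that buffers ATP. At the start site of *Argk1*, values rose from 143, 132 and 132 to 195, 208 and 198 scaled tags (limma adjusted p = 0.020), and this region passed in 13 of the 16 settings.

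A further 22 regions that passed at dusk had a missing call, and 19 of them had no call in any dawn library. For these the dawn value is unknown and the change depends on what is filled in. The lowest number of tags among a library's own peaks was used. When the missing value was set to the most tags that the local background would have left uncalled, all 22 kept their direction and 10 passed. The largest were *CG1578* (2.39), *Edc3* (2.04), which encodes a factor of mRNA decapping, *CG6610* (1.94), *gol* (1.68), a ubiquitin ligase, and *CG42613* (1.64). Of these 5, *CG1578*, *Edc3* and *CG6610* passed at the local limit, with changes of 0.96, 0.98 and 0.67. *Fur1*, a furin protease, was called in 1 dawn library at 32.5 scaled tags and in the dusk libraries at 70.8, 55.0 and 64.5. *Cipc*, whose product inhibits CLK, had no dawn call and 36.6, 49.4 and 35.2 scaled tags at dusk, and at the local limit it missed the threshold (0.71, limma adjusted p = 0.141). *Fur1* and *Cipc* are named after their values were seen.

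At dawn, the largest change among regions called in all 6 libraries lay in an intron of *Dyrk2*, a protein kinase (chr2L:14213891-14214277). It had 54.2, 51.2 and 69.0 scaled tags at CT24 and 24.8, 27.0 and 25.4 at CT36, a log2 change of -1.13 ± 0.20 (limma adjusted p = 0.057). Here CT36 replicate 3 was like the other dusk libraries. This was otherwise rare: it was the dusk library nearest to dawn in 42 of the 50 dawn regions called in all 6. Near *CG1394*, for example, values were 149, 138 and 108 at dawn and 47.2, 58.7 and 87.0 at dusk (-1.06). Near *a6* they were 71.9, 72.5 and 65.9 at dawn and 31.8, 30.7 and 42.0 at dusk. The next were near *lncRNA:CR45410* (-0.94), *heca* (-0.92), a developmental regulator, *CG42342* (-0.87), *CG42750* (-0.77), *Prosap* (-0.73), a scaffold of the synapse, *bab1* (-0.73), a transcription factor, and *CG46320* (-0.72). Their adjusted p-values lay between 0.038 and 0.092 in limma. With all summits of a region summed, the changes at *lncRNA:CR45410* and *bab1* were smaller, at -0.63 and -0.34, and missed the threshold. All 82 dawn regions also passed without CT36 replicate 3, as did 10 of the 29 dusk regions. The 19 dusk regions with no dawn call could not be tested in that run. The dawn calls did not hold in the same way when other libraries were left out. Without CT24 replicate 1, 2 and 3, the regions that passed at dawn numbered 0, 1 and 7. Without CT36 replicates 1 and 2 they numbered 29 and 44.

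Another 32 dawn regions had a missing call, 30 of them with no call in any dusk library. All kept their direction at the local limit and 8 passed there. The largest were near *SoxN* (-2.35), a Sox transcription factor, *NijA* (-2.17), a ninjurin of the cell surface, *CG42795* (-2.11), *mub* (-2.08), an RNA-binding protein, and *lncRNA:CR45402* (-1.96). At *SoxN* the dawn libraries had 101, 91.7 and 106 scaled tags, while up to 73.3 scaled tags could have gone uncalled in CT36 replicate 3, and the change at the local limit was -0.45 (limma adjusted p = 0.103).

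Regions that were higher at dawn lay mostly in introns. Of the 405, 274 were in introns (67.7%) and 14 at start sites (3.46%), that is within 250 bp of one, whereas 36.8% of all regions called in 6 libraries were at start sites and 37.0% in introns. The 82 dawn regions of the smaller set were also mostly in introns (69.5%, against 39.8% of all tested). For dusk regions the picture depended on the set. The 110 were spread over introns (29.1%), start sites (24.5%) and intergenic DNA (33.6%, against 17.8% of all), whereas of the 29, 16 were in introns (55.2%) and 2 in intergenic DNA (6.90%, against 19.4% of all tested). The median width of the 110 was 423 bp and that of the dawn regions 530 bp, against 359 bp in all. On the X chromosome lay 3 of the 110 dusk regions (2.73%) and 62 of the 405 dawn regions (15.3%), against 16.5% of all regions, but 4 of the 29 dusk regions (13.8%) and 6 of the 82 dawn regions (7.32%), so that the order of dusk and dawn turned with the set. Several dawn regions shared a gene: *CASK*, a scaffold kinase of the synapse, had 5, and *Rbp6*, which encodes an RNA-binding protein, had 4. Start sites held 40.7% to 41.6% of the summit tags of the CT24 libraries and 41.4% to 42.2% of those of the CT36 libraries.

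Markers of other cell types were compared in the same libraries. The summed level of 8 glial genes was 38.7 to 45.3 CPM at CT24 and 32.7 to 39.9 at CT36, against 43.4 to 57.6 in non-clock cells. The genes did not all go 1 way. In every clock library *repo*, *Eaat1* and *Gs2* were below all non-clock libraries, and *gcm* was above them. *alrm*, *moody* and *wrapper* had no call in clock neurons, but *alrm* had none in non-clock cells either, and *moody* and *wrapper* none in non-clock replicate 1. *nrv2* held most of the sum, with means of 31.0 at CT24, 26.5 at CT36 and 25.4 in non-clock cells. The summed level of 6 photoreceptor genes was 25.6 to 27.1 at CT24 and 27.1 to 33.9 at CT36. At dusk this sum was lowest in CT36 replicate 3. *ninaE* and *chp* had no call in any of these libraries. *so* and *eya* held most of the sum, with means of 12.1 and 8.24 at CT24 and 13.0 and 11.5 at CT36. Means of *trp* and *trpl* were 2.81 and 3.19 at CT24 and 3.31 and 3.50 at CT36. A region nearest to *eya* was itself among the dusk regions that passed without filled-in values. Summed levels of 5 genes of all neurons were 134 to 149 and 128 to 139 CPM. Their part in the dawn and dusk differences was not tested.

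The motif shares were also counted without filled-in values. The E-box was then in 31 of 110 dusk regions (28.2%), in 21 of 405 dawn regions (5.19%) and in 6.06% of all regions called in 6 libraries. The core of Sox sites (AACAAT or ATTGTT) was in 18.2% of dusk, 29.9% of dawn and 25.5% of all regions. The GAGA motif (GAGAGAG or CTCTCTC) was in 17.3%, 8.40% and 14.1%. The site of VRI and PDP1 (TTATGTAA, TTACATAA or TTACGTAA) was in 1.82%, 2.22% and 2.50%, and that of Dref (TATCGATA), which is typical of promoters, in 0.909%, 0% and 4.20%. No motif contains another, and all were read on both strands. The median GC content was 50.2% in dusk, 49.2% in dawn and 46.8% in all regions.

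**Figure D4:**
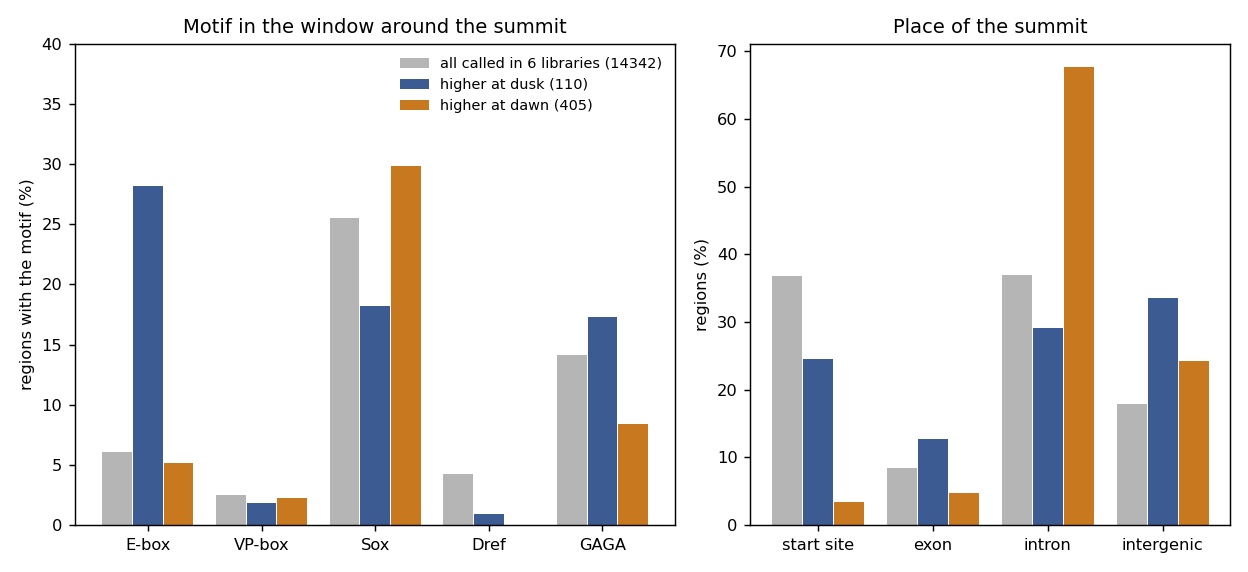
The left panel gives the share of regions with each motif in the window around the summit and the right panel the share by place of the summit, in percent, for all 14342 regions called in 6 libraries (grey), the 110 higher at dusk (blue) and the 405 higher at dawn (orange). The E-box stood at 28.2% in dusk regions, and introns at 67.7% in dawn regions.

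The 13 dusk regions with an E-box that passed were those of *vri*, *Pdp1*, *CG44362*, *lncRNA:CR43174*, *norpA*, *dpr6*, *Fur1*, *gol*, *CG34353*, *CG32264*, *lncRNA:CR43434*, *lncRNA:CR45240* and *lncRNA:CR45552*. *norpA* encodes the phospholipase C of phototransduction and *dpr6* a cell-surface protein of synaptic recognition. In an intron of *CG34353*, a dawn library had no call, the others had 36.3 and 43.4 scaled tags, and the dusk libraries had 94.3, 90.4 and 78.2. In an exon of *CG32264* no dawn library had a call, and the dusk libraries had 61.3, 62.4 and 48.9.

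The LD and *per01* libraries share no sample with the 6 libraries compared here, so they show the same regions in independent material. In LD, from ZT0 to ZT12, 23 of the 29 dusk regions were higher at dusk too, with a median change of 0.58 in log2 (1.13 in DD), and 64 of the 82 dawn regions were higher at dawn, with a median of -0.16 (-0.72 in DD). Over all regions tested, 55.6% had the same sign. Where an LD or *per01* library had no call, its value was filled in too. For the regions that passed in DD without filled-in values, the shares were 75.5% of 110 and 88.1% of 405. In *per01*, 18 of 29 dusk and 47 of 82 dawn regions had the same sign (51.7% over all regions), with medians of 0.04 and -0.03. Of the 111, 0 passed there (limma, 7 at an unadjusted p below 0.05). The same held for all 19984 regions tested, of which 0 passed in *per01* (limma, 803 at an unadjusted p below 0.05). The *per01* libraries held 4.18 to 12.2 M tags, against 8.72 to 14.1 M in the wild type in DD. Their median summit had 30 to 61 tags, against 47 to 63. The part of depth in these counts was not tested. Of the 405 dawn regions, 70.4% had the same sign in *per01*, with a median of -0.07.

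The dusk regions were also split by the E-box, and their LD values compared. All 13 with an E-box were higher at ZT12, with a median log2 change of 0.72, and 5 passed there. Of all 19984 regions tested, 47 passed in LD. Some of these LD changes rest on filled-in values, as in DD. Among the 13, *CG32264* and *lncRNA:CR45240* had no call in any ZT0 library, and *CG34353* lacked a call in ZT0 replicate 2. Of the 16 without an E-box, 10 were higher at ZT12, with a median of 0.09, and 1, at *tim*, passed. Of the dusk regions that passed in DD without filled-in values, 28 of 31 with an E-box (median 0.37) and 55 of 79 without (median 0.06) were higher at ZT12. In *per01* both kinds had medians near 0, of 0.04 and 0.06 for the 13 and the 16. The difference between regions with and without an E-box was not tested.

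**Figure D5:**
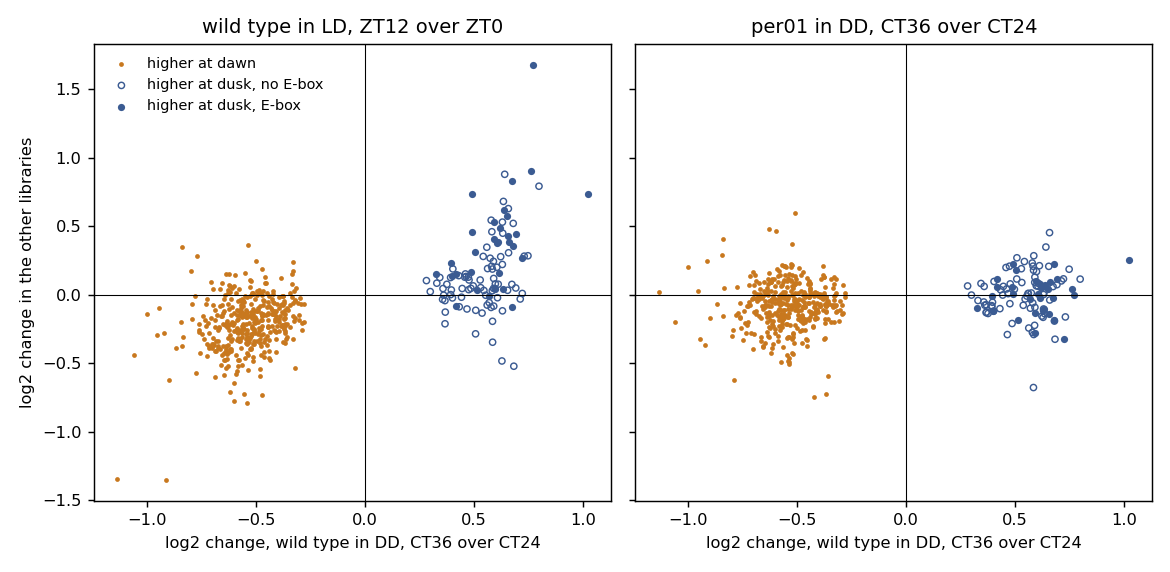
Each point is 1 of the 515 regions that passed without filled-in values. The x axis is the log2 change in wild-type flies in DD and the y axis that of the same region in wild-type flies in LD (left, ZT12 over ZT0) or in *per01* flies in DD (right, CT36 over CT24). Dusk regions with an E-box (filled blue) lay above 0 in LD in 28 of 31. In *per01* both dusk groups had medians of 0.01, and the dawn regions lay slightly below 0, with a median of -0.07.

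The *tim* region that passed had 60.2, 42.6, 57.7 and 69.4 scaled tags at ZT0 and 110.1, 80.5, 119.5 and 89.9 at ZT12, a log2 change of 0.79 (limma adjusted p = 0.072). In *per01* it had 81.6, 96.0, 79.4 and 98.1 at CT24 and 74.3, 115, 94.5 and 104 at CT36. Scaled together with *per01*, wild-type values were 40.3, 41.1 and 51.7 at CT24 and 77.0, 86.0 and 69.8 at CT36. The *per01* libraries of both times thus overlapped the dusk libraries of the wild type and lay above all its dawn libraries.

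At *vri* and *Pdp1* too, all *per01* libraries lay above the wild-type dawn libraries, but fewer of them overlapped wild-type dusk. At *vri*, wild-type values on that scale were 72.3 to 74.3 at CT24 and 117, 119.8 and 112 at CT36, and *per01* ranged from 118 to 175 at CT24 and from 128 to 177 at CT36, so that only the lowest CT24 library overlapped the wild type at dusk. At *Pdp1* they were 93.4, 97.9 and 124, then 169, 162 and 165, and 170.4 to 225 and 148 to 202 in *per01*, whose CT24 libraries all lay above the wild type at dusk. In LD, *vri* changed by 0.58 (limma adjusted p = 0.058) and *Pdp1* by 0.43 (limma adjusted p = 0.358). *Dyrk2*, the leading dawn region, had 67.8, 50.0, 75.8 and 79.9 scaled tags at ZT0 and 32.7 and 42.5 in the 2 ZT12 libraries that called it (-1.34, limma adjusted p = 0.058). In *per01* it was between 37.2 and 57.0 at CT24 and between 35.3 and 59.0 at CT36, and the groups overlapped.

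The difference in the time effect between genotypes passed at 12 of 22986 regions (0.0522%) and between light regimes at 4 of 24387 (0.0164%). None of the 12 and 4 was at a core clock gene. At *tim* the difference from *per01* was 0.68 ± 0.21 (limma adjusted p = 0.76), and at *Pdp1* it was 0.80 ± 0.17 (limma adjusted p = 0.29).

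The list of kinases, phosphatases and degradation factors of the clock proteins also held *lid*, *HDAC1*, *Atx2* and *tyf*, which are of other classes. Of 110 regions at 17 genes of this list, 1 passed (0.909%, against 0.555% of all regions), that of *Dyrk2* described above. Without filled-in values 3 of 92 passed (3.26%, against 3.59% of all), so neither share stood out from the background. *ctrip*, a ubiquitin ligase acting on CLK, had 37.6, 33.1 and 33.3 scaled tags at dawn and 62.5, 66.2 and 50.8 at dusk (0.76, limma adjusted p = 0.012, without filled-in values). When the summits of that region were summed, the change turned to -0.26 (limma adjusted p = 0.70). *wdb*, a regulatory subunit of protein phosphatase 2A, rose by 0.53 (limma adjusted p = 0.088). An E-box lay in the window of *ctrip*.

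At genes of light input, 1 of 25 regions passed (4%, against 0.555% of all). The intronic region of *norpA* with the E-box printed above had no dawn call and 47.2, 37.3 and 35.2 scaled tags at dusk (1.10, limma adjusted p = 0.077), and it passed at the local limit too (1.00, limma adjusted p = 0.031). Without filled-in values 2 of 18 regions passed (11.1%, against 3.59% of all), both in other introns of *norpA* and higher at dawn, with changes of -0.44 and -0.63. Of 71 regions of neuropeptide receptors 2 passed (2.82%), both higher at dawn, and without filled-in values 3.92% of 51 passed, near the 3.59% of all regions. One was an intron of *Pdfr*, the receptor of the clock neuropeptide PDF, which had 65.3, 46.9 and 50.4 scaled tags at CT24 and 30.3 in the single CT36 library that called it (-1.24, limma adjusted p = 0.084, and -0.90 at the local limit, limma adjusted p = 0.031). *AstA-R1*, a receptor of allatostatin A, had 166, 132 and 134 at dawn and 88.4, 88.5 and 105 at dusk (-0.61, limma adjusted p = 0.082). Of the 31 regions of neuropeptide genes, 0 passed by limma, with or without filled-in values (3 at an unadjusted p below 0.05 in either).

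Of 151 regions of potassium channels 1 passed (0.662%), and without filled-in values 3.57% of 112, both near the 0.555% and 3.59% of all regions. The one was in an intron of *Shab*, a delayed rectifier, with 40.9, 45.9 and 39.5 scaled tags at dawn and no dusk call (-1.12, limma adjusted p = 0.059). It rests on the filled-in value, since at the local limit the change was -0.31 (limma adjusted p = 0.64). Without filled-in values *Hk*, a beta subunit of Shaker channels, was higher at dawn in 2 introns (-0.51 and -0.64). The first of these was at 0.00 when the summits of the region were summed (limma adjusted p = 0.999). An exon of *SLO2* was higher at dawn (-0.49), and the start site of *Shawl* was higher at dusk (0.44, limma adjusted p = 0.0066). Of 60 regions of sodium, calcium and leak channels 1 passed (1.67%), in an intron of *Ca-alpha1T*, with no dawn call and 33.0, 40.1 and 40.1 scaled tags at dusk (1.02, limma adjusted p = 0.087). At the local limit it did not pass (0.47, limma adjusted p = 0.419). Without filled-in values 4 of 49 were higher at dawn (8.16%, against 2.82% of all), at *para*, *NaCP60E* and, in 2 regions, *Ca-alpha1T*.

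Nuclear receptors, which act in hormone signalling, had 3 of 136 regions past the threshold (2.21%, against 0.555% of all), all higher at dawn, at *EcR*, the ecdysone receptor, *ftz-f1* and *Eip78C*. The intron of *Eip78C* had 132, 109.9 and 127 scaled tags at dawn and 83.7, 68.0 and 83.1 at dusk (-0.65, limma adjusted p = 0.077). The region of *EcR* had no dusk call, and its change of -1.95 (limma adjusted p = 0.0018) fell to -0.41 at the local limit (limma adjusted p = 0.271), whereas that of *ftz-f1* passed there (-0.97, limma adjusted p = 0.022). Without filled-in values 5 of 114 passed (4.39%, against 3.59% of all), of which 4 were higher at dawn and 1, a start site of *Eip75B*, at dusk.

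Of 234 regions of the *dpr* and *DIP* families, cell-surface proteins that pair neurons at synapses, only that of *dpr6* passed (0.427%, against 0.555% of all), with no dawn call and 38.9, 38.2 and 45.0 scaled tags at dusk (1.13, limma adjusted p = 0.059). At the local limit it passed as well (1.19, limma adjusted p = 0.010). Without filled-in values 7 of 145 passed (4.83%, against 3.59% of all). Of these 6 were higher at dawn, at *DIP-zeta*, *DIP-gamma*, *dpr11*, *dpr12* and *dpr17*, and *dpr3* was higher at dusk. Of 26 regions of Sox factors 1 passed (3.85%), that of *SoxN*, which missed the threshold at the local limit. At genes of activity and plasticity 0 of 116 regions passed by limma (16 at an unadjusted p below 0.05), at genes of neurotransmitter synthesis and transport 0 of 35 (4), at those of proteostasis and splicing 0 of 21 (1) and at those of sex determination and dosage compensation 0 of 47 (2). Without filled-in values *Mef2*, a transcription factor of activity, was higher at dusk (0.49, limma adjusted p = 0.076) and *dnc*, the cAMP phosphodiesterase, at dawn (-0.55, limma adjusted p = 0.092).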

How the data were processed

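The authors trimmed reads with cutadapt 4.1 and aligned them with Bowtie2 2.4.5 to dm6. They removed mitochondrial reads with SAMtools 1.15.1 and duplicates with Picard 2.27.4, and called peaks per library with MACS2 2.2.7.1 (versions per the labels). Replicates were not pooled. The fold enrichment at a summit was deposited as the ratio of tags plus 1 to the expected tags plus 1, and the −log10 p and q were deposited as Poisson probabilities from MACS2. The score column deposited by the authors is derived from the −log10 q and was not used. Tn5 cut sites were shifted and extended to 74 bp by the authors, so a tag is 1 read end. Every peak column belonged to a labelled library.

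Solving fold and −log10 p together gave whole tags, within 0.02, at 100% of the summits. Totals came from the genome-wide background over 1.2e+08 bp, and 10 kb counts from the local background. Where a library had no call, its least tagged peak supplied the value. Windows were tested where all 6 libraries had a local count above background. Libraries were scaled by median of ratios, and log2(tags + 1) was fitted in limma 3.58.1 (R 4.3.3) with a variance trend and Benjamini-Hochberg adjustment over all regions, at 0.1. The *per01* and LD changes came from fits over 14 libraries. The study's DESeq2 test needs read counts, which were not used here. Tested on simulated data with 19984 regions, the fit recovered 73% of 2-fold and 40% of 1.5-fold changes, and 28 of its 141 calls were false. These are tags at called summits, so the spread between libraries includes counting error, and read counts over regions could give other calls.

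Regions were annotated with the Ensembl annotation of the same assembly, and sequences were read from RefSeq's copy. The members, the 14 gene lists (215 of 218 names found in the annotation) and the tests were chosen with earlier results of these data known. Named regions were all tested regions of core clock genes, the 10 largest changes in each direction among calls in all 6 libraries, the 5 largest with a missing call, list members that passed, and the 5 genes with the largest window changes. Other scalings, pseudocounts, filters, fills and merges, a replicate block and left-out libraries were tried. Tables and plots were made in Python 3.11.15 with pandas 2.3.3, numpy 2.4.6, matplotlib 3.10.9 and scipy 1.17.1.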

Additional observations from a re-analysis of the deposited data

Results flagged for a closer look

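The change from dawn to dusk differed between wild-type and *per01* clock neurons at 12 regions, by an interaction term in limma. It was lower in the wild type near *SoxN* (-2.42 in log2), *EcR* (-2.03), *Corin* (-1.94), *fwd* (-1.75), *NijA* (-2.83), *mub* (-2.74), *CG42795* (-2.67), *lncRNA:CR34044* (-0.77), *glob1* (-1.86), *lncRNA:CR44256* (-1.44) and *dati* (-2.28), and higher near *CycY* (2.70). Only *lncRNA:CR34044* was called in all 14 libraries, with a change of -0.59 in the wild type and 0.19 in *per01* (limma adjusted p of the difference 0.082). At the other 11, between 3 and 6 of 14 libraries had a call.

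Between DD and LD the change differed at 4 regions, near *SoxN* (-2.44), *lncRNA:CR45402* (-2.16), *CG42795* (-2.21) and *CG1578* (2.34). At *lncRNA:CR45402* and *CG1578* all 8 LD libraries had a call, and the missing calls were those of 3 wild-type libraries in DD. With missing calls at the local limit, or with regions called in all libraries, 0 of the 12 and 0 of the 4 passed in limma, so each difference except that of *lncRNA:CR34044* rests on filled-in values. *lncRNA:CR34044* missed the threshold in the last 2 settings.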

How the results depend on the processing

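The count of 111 regions became 198 with scaling by total tags (33 at dusk, 165 at dawn), 515 for regions called in all libraries, 48 with no filter, 432 with missing calls at the local limit (88 and 344), 40 with summed summits, 61 with stricter peaks and 11 with the spread of all 22 libraries. A replicate block left 29 (9 at dusk, 20 at dawn) and 682 of 969 windows. Whether the replicate numbers pair the samples is not known. Same-numbered libraries deviated from their group means with correlations of 0.01, -0.02 and -0.03, which cannot settle it with 3 libraries per group. Leaving out 1 library gave 12 to 558 regions, 280 to 1439 windows, 0 to 11 regions with a genotype difference and 3 to 10 with a light difference. When windows at the background were kept, with the background filled in for a count that is not known, 25 of 14220 windows passed. Why the count fell was not tested. The genotype and light differences each fell to 0 at the local limit and for regions called in all libraries. The median of the core clock regions, 0.14, kept its direction in every setting run (0.09 to 0.16). Of 935 pairs of a named region and a setting, 741 kept their call, 181 lost it, 13 gained it and 0 turned direction with a call on either side, and 5 of 36 called regions passed in every setting run. At 47 to 63 tags at a median summit, changes below 1.5-fold could often not be detected.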
